A study of Arabidopsis thaliana with 12 samples.

Results

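Wild-type inflorescences, which carry flowers up to shortly before opening, were compared with apices in which flower formation had been started 2 days earlier. The comparison covered 17221 of the 33559 gene identifiers in the table, namely all genes with 5 FPKM or more (fragments scaled by transcript length and by library size) in either of the 2 groups. The inflorescences were whole main inflorescences of untreated wild-type Arabidopsis thaliana, from which flowers older than stage 12 had been taken off. The apices came from plants carrying the ap1-1 and cal-1 mutations and the 35S::AP1:GR transgene. They were the dissected cauliflower-like structures of the main shoot, collected 2 days after 10 µM dexamethasone had been pipetted onto them. All lines were in the Landsberg erecta background. The ap1 cal mutant piles up inflorescence-like meristems in place of flowers. The transgene makes a fusion of the floral regulator APETALA1 and a glucocorticoid receptor from the broadly active 35S promoter, and the fusion protein stays inactive until dexamethasone is given. Untreated apices of the same line (day 0) and wild-type rosette leaves were the 2 other groups of the series, and their values are given as context. Genotype, treatment, tissue and flower age differ together between inflorescences and day-2 apices, so their parts in a difference cannot be told apart.

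Each group consisted of 3 libraries, and the authors' table gives 1 merged value per gene and group. No difference below therefore has a replicate check, a standard deviation or a p-value, the depth behind a value is unknown, and a rule of size takes the place of a test. A gene was called higher or lower in inflorescences when log2(FPKM + 1) differed by at least 1 and the larger value was at least 5 FPKM. The pseudocount of 1 FPKM makes this log2 difference smaller than the true ratio for genes with low values. In bulk tissue, fewer cells of a type and less RNA per cell cannot be told apart.

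A young flower forms on the flank of the inflorescence meristem, and its own meristem makes sepals, petals, stamens and carpels in turn. Later each organ differentiates. In the anther, the innermost wall layer, the tapetum, feeds the developing pollen and builds its outer wall, the exine, and its lipid-rich coat. In the carpel, ovules form on the placenta, and petals and sepals grow by cell expansion under a cuticle. Meristem maintenance, the separation of organs by boundaries and the auxin flow that positions them belong to the early steps.

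By the rule of size, 3100 members (18.0% of members, 9.24% of all identifiers) were higher in inflorescences and 940 (5.46% of members, 2.80% of all identifiers) were lower. The median log2 difference over the members was -0.03, and 54.3% of them lay within 0.5 of no difference. Of the higher genes, 1995 reached 5 FPKM only in inflorescences, and of the lower genes, 292 reached it only at day 2. Among the 14259 members at 5 FPKM or more in both groups, 1105 were higher and 648 lower. A log2 difference of 4 or more was found for 490 members in the higher direction and for 34 in the lower direction, and one of 6 or more for 127 against 3. Of the 127, 42 were listed at 0 at day 2, and all 3 on the lower side were listed at 0 in inflorescences. These 3, named after their values were seen, were CAT3 (AT1G20620), a catalase, AT3G25719 and the small nucleolar RNA AT2G35742. CAT3 was at 335 FPKM at day 2 and listed at 0 in the 3 other groups, and such a 0 can be a failed estimate. The values nearest to the limit for membership were 5.00022 and 5.00128 FPKM inside and 4.99977 and 4.99677 FPKM outside it.

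The higher and the lower genes differed in their levels in the other 2 groups. The 3100 higher genes had a median of 20.02 FPKM in inflorescences, 2.21 at day 2, 2.74 at day 0 and 12.5 in leaves. In leaves, 1835 of them (59.2%) reached 5 FPKM, against 13909 of the 17221 members and 430 (45.7%) of the lower genes. Among the higher genes, 1026 reached 5 FPKM in leaves and at day 2, with a median difference of 1.40. Another 784 stayed below 1 FPKM in leaves and at day 2, with a median difference of 3.60. Because the day-2 level is part of the difference, a larger median in the second set follows from the split itself. The 940 lower genes had a median of 32.5 FPKM at day 2, 28.9 at day 0, 9.96 in inflorescences and 3.84 in leaves. Of these, 886 also reached 5 FPKM at day 0, against 14899 of the 17221 members. In inflorescences 648 were still at 5 FPKM or more, against 16566 of the members. Of the 784, 757 were also below 1 FPKM at day 0. They made up 2.87% of all inflorescence FPKM, and 453 of these genes have no symbol in RefSeq.

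**Figure D1:**
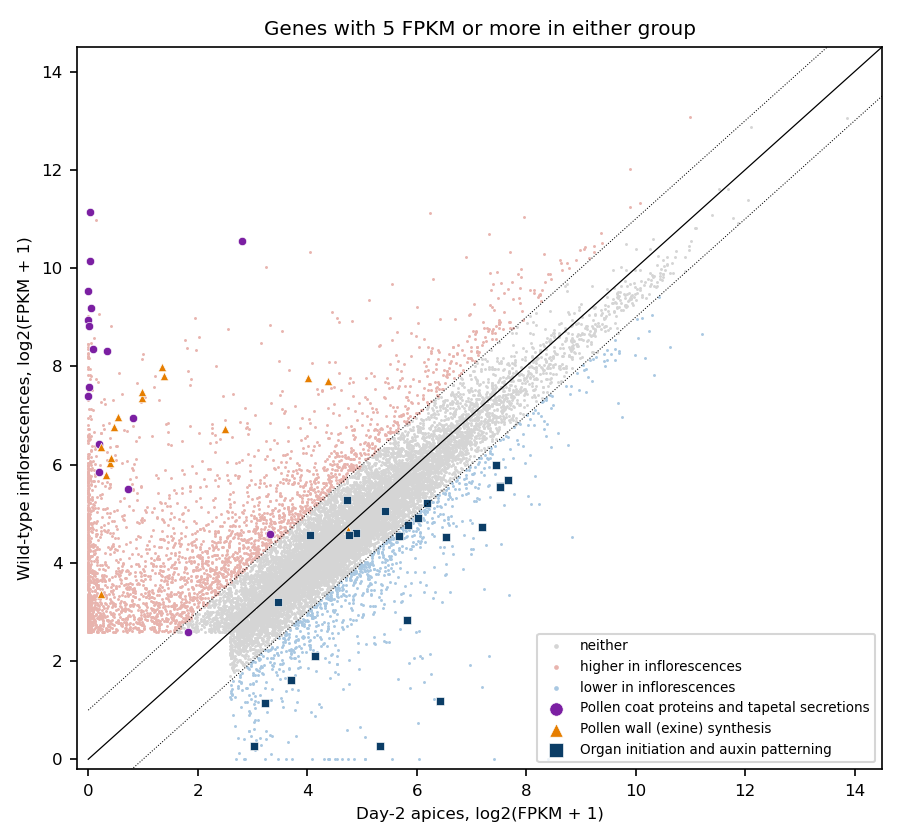
Each point is 1 of the 17221 genes, with its log2(FPKM + 1) in day-2 apices on the x axis and in wild-type inflorescences on the y axis. The solid line marks equal values and the dotted lines a difference of 1, and 3 gene lists are drawn on top, with all their genes. Most pollen coat and exine genes lie far above the line and close to 0 at day 2, whereas most organ initiation genes lie below it. Exceptions are DEX1, just below the line, and 2 of the 23 organ initiation genes, above it.

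The labelled tissues were checked against defining marker genes. The summed level of 7 tapetum markers was 2.77 FPKM at day 2 and 1791 FPKM in inflorescences, and 6 of the 7 were called higher, DYT1 being too low for a call. LTP12 alone gave 1138 FPKM of that sum. The 6 pollen markers summed to 5.11 FPKM at day 2 and 529 in inflorescences, of which VGD1 gave 291. Of these, 4 were called higher, while GEX2 was at 0.485 FPKM at day 2 with a log2 difference of 0.014, and ANX1 was at 4.15 and 5.35. All 5 ovule and carpel markers were higher, with sums of 8.16 and 129 FPKM, as were all 3 xylem markers, with 3.77 and 51.3. The 4 markers of green tissue summed to 497 FPKM at day 2, 1908 in inflorescences and 5675 in leaves. Shoot meristem markers (4 genes) summed to 368 FPKM at day 2, of which STM gave 217, and to 86.1 in inflorescences. Of these, 3 were called lower, while WUS was at 13.4 FPKM at day 2 and 17.8 in inflorescences and was not called. All 3 floral meristem markers were lower, with sums of 1035 and 155 FPKM. The last sum contains AP1 itself, whose 813 FPKM at day 2 cannot be divided between the transgene and the mutated gene.

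Across 24 gene lists with 441 genes, the pollen coat and exine lists had the highest medians and those of boundaries and organ initiation the lowest. The median was 7.75 for pollen coat proteins and tapetal secretions and 5.72 for exine synthesis. Nectar and floral volatiles followed at 3.33, above tapetum regulators at 3.12 and late pollen at 2.49. The list of anther endothecium, dehiscence and filament growth was at 1.62 and the male germ line at 1.14. It was -2.01 for organ boundary genes and -1.96 for organ initiation and auxin patterning. Over all identifiers the median was 0.00. The counts for lists and families below are over all their genes, members or not. The shares to read them against are those over all identifiers, 9.24% higher and 2.80% lower. Where nearly all genes of a list are members, the shares of members, 18.0% and 5.46%, are the closer ones. The lists were chosen with earlier results of these data known, so a count above these shares is a description and no independent support.

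**Figure D2:**
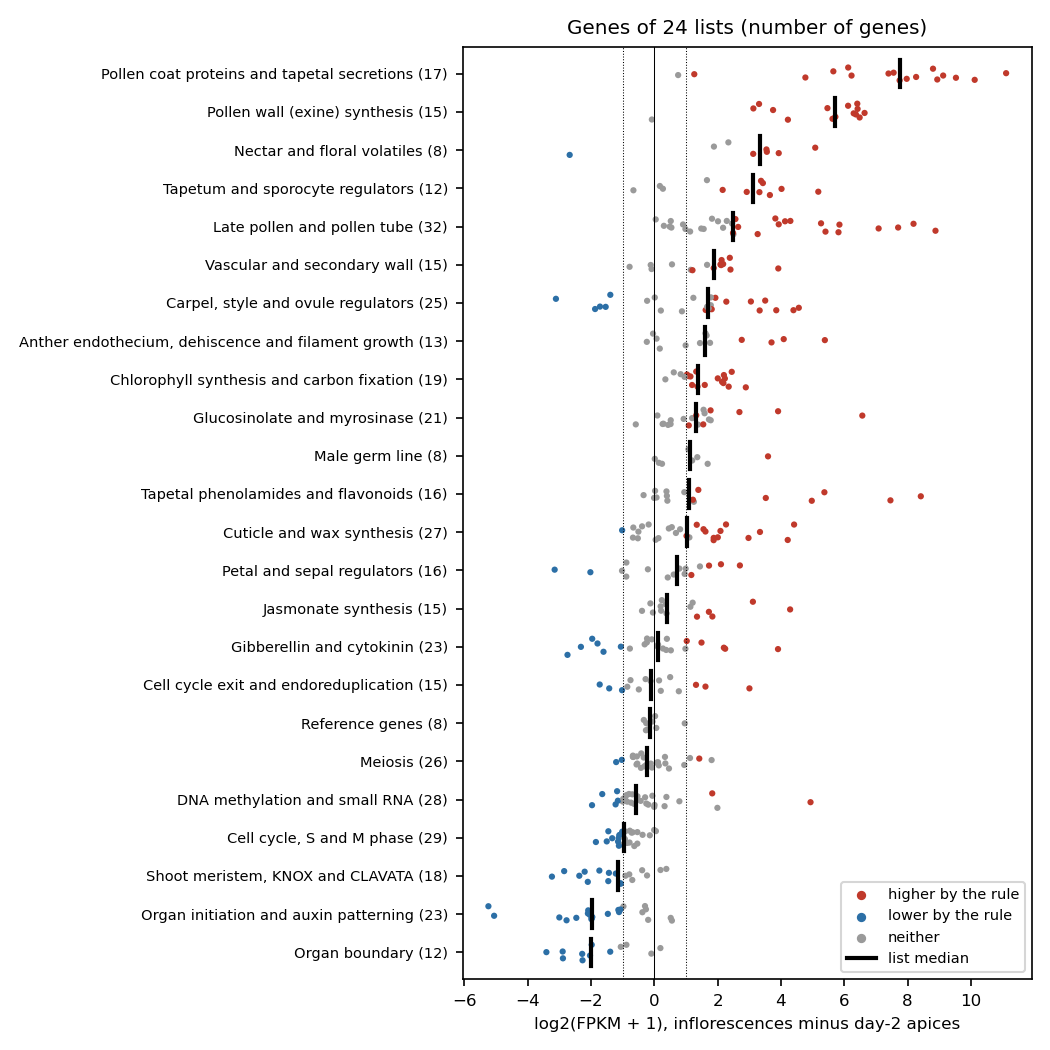
Each point is 1 gene of the list named on the left, placed by its log2(FPKM + 1) in inflorescences minus that in day-2 apices, with the number of genes in parentheses. Black bars are list medians, dotted lines the limits of the rule, and red and blue points the genes called higher and lower. The medians run from 7.75 for pollen coat proteins to -2.01 for organ boundary genes.

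Regulators of the tapetum and of the spore-forming cells were higher in inflorescences in 8 of 12 cases, and none was lower. SPL (AT4G27330), which starts the formation of sporogenous cells, had a listed value of 0 in leaves, 0.0495 FPKM at day 0 and 0.0692 at day 2, against 12.4 in inflorescences. AMS (AT2G16910), a bHLH protein that directs tapetal gene expression, stood at 0.142, 0.273, 0.784 and 63.7 FPKM in the same order. It was the most abundant gene of the list in inflorescences and below 1 FPKM in the other groups. MS1, a late tapetal regulator, was at 0.0151 FPKM at day 2 and 9.50 FPKM in inflorescences. The MYB factors TDF1 and MYB80 were higher too, at 6.34 against 0.643 FPKM and 7.01 against 0.0585 FPKM, and DYT1, which acts upstream of them, reached only 2.39 FPKM and so could not be called. The 3 bHLH genes without a symbol, AT2G31220, AT1G06170 and AT2G31210, stood at 27.3, 21.8 and 11.4 FPKM in inflorescences and between 0.239 and 1.63 FPKM at day 2. The receptor complex that specifies the tapetum showed another pattern. The receptor kinase EMS1 was at 13.3 FPKM at day 2 and 16.3 in inflorescences, its ligand TPD1 at 8.40 and 9.61, and the coreceptor SERK1 at 25.4 and 15.7. These 3 genes did not meet the rule and were already above 8 FPKM in both groups of apices.

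The exine is made from fatty-acid-derived polymers exported by the tapetum. Of its 15 genes, 14 were higher in inflorescences and 10 stayed below 1 FPKM in leaves. ACOS5, the acyl-CoA synthetase at the start of the pathway, stood at 0.0476 FPKM in leaves, 0.532 at day 0 and 0.967 at day 2, against 162 in inflorescences. The polyketide synthase LAP5 was at 0.973 FPKM at day 2 and 176 in inflorescences, and its partner LAP6 at 19.9 and 206. LAP5 and LAP6 thus reached similar levels in inflorescences from different levels at day 2. The reductases DRL1 and TKPR2 were at 15.2 and 4.64 FPKM at day 2 and at 217 and 104 in inflorescences. The hydroxylases CYP703A2 and CYP704B1 reached 64.2 and 69.3 FPKM, the fatty acyl reductase MS2 reached 124 and the exporter ABCG26 reached 54.5, each from below 0.5 FPKM at day 2. Genes for the callose and pectin walls around the tetrads behaved alike. CALS5, which makes the callose wall, was at 9.24 FPKM against 0.170, and QRT3, a polygalacturonase that frees the microspores, stood at 107 against 0.377 FPKM. DEX1, which patterns the primary exine, was the exception, at 20.5 FPKM in leaves, 25.2 at day 0 and 25.7 at day 2, against 24.3 in inflorescences.

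The pollen coat list contained the steepest differences, with 16 of 17 genes higher. The oleosin-type GRP genes, which coat the pollen grain, form an unbroken run of 6 neighbouring genes on chromosome 5 in RefSeq's assembly TAIR10.1. In inflorescences they stood at 325 FPKM for GRP14, 85.1 for GRP18, 738 for GRP17, 168 for GRP16, 2260 for GRP19 and 490 for GRP20. At day 2 none of the 6 exceeded 0.146 FPKM, and GRP16, GRP17 and GRP20 were listed at 0. These genes are similar in sequence, so the division of reads among them is uncertain. The extracellular lipase EXL4 lies in another run of 5 neighbours, on chromosome 1, together with EXL6, ATA27 and the lipase genes AT1G75900 and AT1G75920. EXL4 reached 450 FPKM from 0.00726, EXL6 reached 189 from 0.00781, ATA27 reached 581 from 0.0416 and AT1G75920 reached 56.5 from 0.140. Within that cluster AT1G75900 stood apart, with 20.8 FPKM in leaves, 19.0 at day 0 and 9.05 at day 2, against 23.1 in inflorescences. Next to the run, AT1G75890 was at 2.56 FPKM at day 2 and 4.99 in inflorescences, just under 5 FPKM, and its log2 difference was also below 1. AT1G75880, also next to the run, was higher at 44.5 against 0.664. ATA20, a tapetal secreted protein, was unlike most of the list in being measurable everywhere, at 8.89, 5.63 and 6.01 FPKM in leaves, at day 0 and at day 2, before 1509 FPKM in inflorescences. Together the 17 genes held 0.918% of all inflorescence FPKM.

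Phenolamides and flavonols of the pollen coat are made by separate enzymes, and these 2 branches differed. The phenolamide enzymes SHT, a spermidine acyltransferase, and TSM1, a methyltransferase, stood at 183 and 454 FPKM in inflorescences and at 0.0446 and 0.327 FPKM at day 2. The hydroxylases CYP98A8 and CYP98A9 of this branch reached 85.1 and 66.6 FPKM from 1.74 and 0.631. In the other groups none of these 4 genes was above the 2.00 FPKM of CYP98A8 at day 0. Of the early flavonoid enzymes, TT4 (chalcone synthase) was at 596 FPKM at day 2 and 592 in inflorescences, TT5 (chalcone isomerase) at 107 and 112, and FLS1 (flavonol synthase) at 171 and 224. The anthocyanin enzymes DFR and LDOX were at 95.7 and 92.3 FPKM in leaves and did not exceed 2.62 FPKM in inflorescences. TT7 at 60.7 against 22.5 FPKM and the flavonol regulator MYB111 at 29.4 against 12.1 were the flavonoid genes called higher, and 7 of the 16 genes in all met the rule in this direction.

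**Figure D3:**
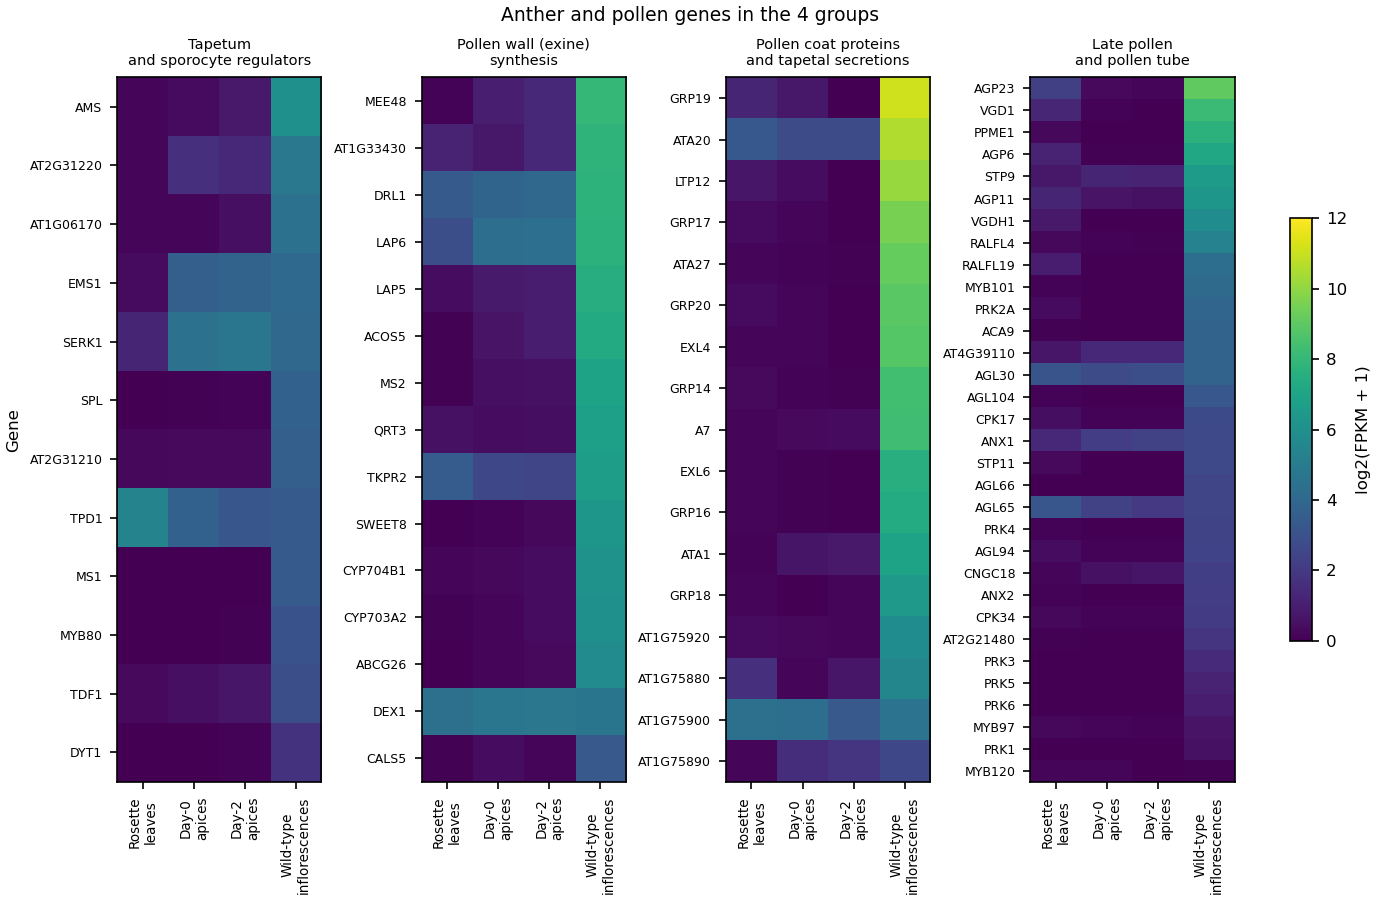
Colour gives log2(FPKM + 1) of each gene in the 4 groups for 4 lists, with genes ordered by their level in inflorescences. Most genes are dark in leaves and in both groups of apices. In inflorescences most pollen coat and exine genes are bright. Tapetum regulators and late pollen genes are dimmer there, with medians of 11.9 and 5.37 FPKM. EMS1, SERK1, TPD1, DEX1, LAP6 and DRL1 are among the genes lit in the apices as well.

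Genes of meiosis gave few calls. Of 26 genes, 12 were members and so could be called, and of these 1 was higher and 2 were lower. The median difference over all 26 was -0.25. With a median of 3.45 FPKM in inflorescences, the pseudocount makes many of these differences small. The meiotic recombinase DMC1 stood at 0.929 FPKM in leaves, 6.40 at day 0 and 6.90 at day 2, against 20.1 in inflorescences, and was the higher gene. AHP2, which assists strand exchange, was lower at 5.87 against 13.0 FPKM and was no longer called when the groups were rescaled to equal upper quartiles or by the median ratio. Axis and synapsis genes were low in both groups. ASY1 was at 2.54 FPKM at day 2 and 2.36 in inflorescences, ZYP1a at 1.82 and 2.58, and MSH4 at 1.55 and 1.36. The meiotic cohesin SYN1 reached 2.12 FPKM from 0.428 and MS5, needed to leave meiosis, reached 3.12 from 0.175, both below the level at which a call was possible.

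Late pollen genes were higher in 16 of 32 cases and none was lower. The pectin methylesterases VGD1 and PPME1, which soften the pollen tube wall, stood at 291 and 212 FPKM in inflorescences, with VGD1 listed at 0 and PPME1 at 0.0202 FPKM at day 2. The arabinogalactan proteins AGP6 and AGP11, needed for pollen growth, reached 139 and 81.8 FPKM from 0.0336 and 0.438. RALFL4 and RALFL19, secreted peptides that keep the pollen tube intact, reached 39.3 and 18.9 FPKM from 0.0470 and 0.0124. Their receptors were lower in level, with ANX1 at 5.35 FPKM against 4.15 at day 2 and ANX2 at 3.51 FPKM and listed at 0 at day 2. Of the pollen receptor kinases, PRK2A was at 14.2 FPKM in inflorescences and PRK1, PRK3, PRK4, PRK5 and PRK6 between 0.453 and 4.51. The same unevenness appeared among the MYB factors of the growing tube, as MYB101 stood at 16.7 FPKM, MYB97 at 0.571 and MYB120 at 0.0481. The calcium pump ACA9 reached 13.3 FPKM from 0.00858, while the channel CNGC18 reached 3.71 from 0.598. The list's median of 2.49 rests on low values, and it became 0.99 with a pseudocount of 5 FPKM and 5.32 with one of 0.1.

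Most sperm cell genes were too low for a call. Of the 8 genes, 2 were members, and the median in inflorescences was 1.68 FPKM. The germ-line regulator DUO1 reached 2.22 FPKM in inflorescences and was listed at 0 at day 2. MGH3, a histone of the male germ line, was listed at 0 at day 2 and reached 11.1 FPKM, and it was the only one of the 8 genes to meet the rule. HAP2, the fusion protein of sperm, was at 0.580 FPKM at day 2 and 0.870 in inflorescences.

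The anther wall and filament list had 4 of 13 genes higher and none lower. MYB26 and NST1, which thicken the endothecium wall for anther opening, were at 0.0853 and 0.159 FPKM at day 2 and at 13.1 and 6.86 in inflorescences. MYB21 and MYB24, which drive filament elongation, were at 0.00914 and 0.0201 FPKM at day 2 and at 41.3 and 16.4 in inflorescences. Their close relative MYB57 reached 0.985 FPKM. The auxin response factors ARF6 and ARF8, which act ahead of MYB21 and MYB24, were at 71.8 and 63.8 FPKM at day 2 and at 69.8 and 67.1 in inflorescences. The genes for anther opening itself were low, with ADPG1 at 2.14 FPKM and QRT2, a polygalacturonase gene, at 2.12 FPKM in inflorescences.

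Jasmonate, a lipid hormone needed for stamen maturation, is made in a chain from the plastid to the peroxisome, and 5 of its 15 genes were higher. The lipoxygenases LOX2, LOX3 and LOX4 were at 347, 32.6 and 28.2 FPKM in inflorescences against 39.2, 12.2 and 7.85 at day 2. The middle of the chain differed little, with AOS at 22.3 FPKM at day 2 and 21.6 in inflorescences, AOC3 at 42.0 and 38.5, and OPR3 at 117 and 88.8. At its end JAR1, which joins jasmonate to isoleucine, was higher at 60.9 against 16.4 FPKM, and JMT, which makes the methyl ester, at 21.2 against 0.135. DAD1, the phospholipase of stamen filaments, was at 0.317 FPKM in inflorescences. Leaves held more of most of these transcripts, with 1045 FPKM for LOX2 and 358 for OPR3.

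Carpel and ovule regulators were split, with 10 of 25 genes higher and 5 lower. CRC, which specifies carpels and nectaries, was at 0.0167 FPKM in leaves, 5.73 at day 0 and 4.99 at day 2, against 48.6 in inflorescences. The bHLH genes HEC3 and CES (also HAF), which act in the transmitting tract, reached 12.5 and 20.5 FPKM from 0.195 and 0.0199. Ovule genes were higher as well. INO, which makes the outer integument, was at 8.64 against 1.53 FPKM, and BEL1, which gives the integument its identity, at 9.02 against 1.85, though BEL1 was highest in leaves at 44.2 FPKM. The 5 lower genes were SPT at 16.2 against 62.0 FPKM and its relative ALC at 64.5 against 171, both bHLH factors of carpel margins, and the style genes STY1, STY2 and SRS5. SRS5 had the largest difference of these, at 44.1 FPKM at day 2 and 4.23 in inflorescences. All 5 were at 12 FPKM or more at day 0. Genes of the mature gynoecium were low, with IND at 0.830 FPKM and the synergid factor MYB98 at 0.0588 FPKM in inflorescences.

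Regulators of sepal and petal growth gave 4 higher and 2 lower genes of 16. The higher genes were BPEp, which limits petal cell size, at 40.3 against 17.4 FPKM, and the TCP growth repressors TCP4, TCP10 and PTF1 (also TCP13). TCP4 stood at 25.6 FPKM in leaves, 2.39 at day 0 and 2.71 at day 2, against 23.2 in inflorescences, so that leaves and inflorescences were close and both groups of apices low. CYP78A5 (also KLU), a cytochrome P450 that promotes organ growth, showed the reverse, at 0.0955, 131, 184 and 19.9 FPKM. JAG, which drives growth of the organ blade, was at 6.57 FPKM at day 2 and 5.58 in inflorescences, while its relative NUB was lower at 2.07 against 11.5. The petal gene RBE, at 2.74 FPKM at day 2 and 0.842 in inflorescences, was too low for a call, and PTL, at 5.51 and 2.52, did not meet the rule.

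Of 8 nectar and scent genes, 5 were higher and 1 was lower. The cell wall invertase cwINV4, required for nectar, stood at 33.2 FPKM in inflorescences and did not exceed 0.00788 FPKM elsewhere. The nectar sugar exporter SWEET9 was listed at 0 at day 2 and reached 4.06 FPKM, below the limit for a call. BSMT1, which makes methyl benzoate and methyl salicylate, was at 19.8 against 0.365 FPKM, and the terpene synthases TPS14 and TPS10 at 28.6 and 15.6 against 1.54 and 0.415. A further terpenoid cyclase without a symbol, AT5G44630, went the other way. It was at 0.184 FPKM in leaves, 274 at day 0 and 261 at day 2, against 40.0 in inflorescences.

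Surface lipid genes were higher in 13 of 27 cases, against 9.24% over all identifiers, and 1 was lower. The cutin regulators SHN1 and SHN3 stood at 85.7 and 21.4 FPKM in inflorescences against 3.67 and 6.65 at day 2, and the epidermal MYB factors MYB16 and MYB106 at 51.4 and 7.27 against 11.3 and 1.25. The cutin enzymes GPAT6, CYP77A6 and CYP86A4 reached 120, 85.1 and 64.3 FPKM from 4.65, 9.95 and 5.46, and none exceeded 3 FPKM in leaves. Wax enzymes were higher in part, with KCS6 at 307 against 75.7 FPKM, CER1 at 222 against 71.7 and CYP96A15 at 86.5 against 17.2. Genes that mark the epidermis from its origin behaved differently. PDF1 was lower at 675 against 1368 FPKM, which was no longer a call when the groups were rescaled to equal upper quartiles or by the median ratio. The epidermal regulators ATML1 and PDF2 were at 55.6 and 93.7 FPKM at day 2 and at 34.7 and 65.8 in inflorescences, and the cutin acyltransferase PEL3 was at 284 and 311.

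Of 18 shoot meristem genes, 11 were lower in inflorescences and none was higher, against 2.80% lower over all identifiers. STM, the homeobox gene that keeps meristem cells undifferentiated, stood at 0.159 FPKM in leaves, 195 at day 0 and 217 at day 2, against 41.2 in inflorescences. The related KNAT1, KNAT2 and KNAT6 were at 128, 39.8 and 46.5 FPKM at day 2 and at 27.1, 8.49 and 13.2 in inflorescences. Their BELL-type partners followed, with RPL at 84.6 and 30.7 FPKM, BLH8 (also PNF) at 41.2 and 4.86, and ATH1 at 33.9 and 11.7. The stem cell genes were not alike. CLV3, the peptide made by stem cells, was at 9.14 FPKM at day 2 and 0.0768 in inflorescences, whereas WUS, which maintains those cells from below, was at 13.4 and 17.8. The CLV3 receptors CLV1 and BAM1 were lower at 13.3 against 28.9 FPKM and 55.7 against 131, while BAM2 was at 19.1 FPKM at day 2 and 22.0 in inflorescences. WUS was listed at 0 in leaves. The difference of CLV1 no longer met the rule when the groups were rescaled to equal upper quartiles or by the median ratio.

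Boundary genes, which keep organs apart, were lower in 8 of 12 cases, with none higher. CUC2 and CUC3 were at 29.3 and 36.7 FPKM at day 2 and at 6.68 and 4.10 in inflorescences. LAS and MYB37 (also RAX1), which start axillary meristems, were at 7.18 and 9.28 FPKM at day 2 and at 0.685 and 0.381 in inflorescences. BOP2 was lower at 5.79 against 26.8 FPKM, and its paralog BOP1, at 2.45 against 5.35, did not meet the rule. The LSH genes split. LSH3 was at 150 FPKM at day 0 and 54.5 at day 2, against 10.5 in inflorescences, LSH1 at 123, 7.58 and 2.26, and LSH4 at 72.4, 12.8 and 14.8. No boundary gene reached 5 FPKM in leaves.

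Organ initiation and auxin patterning genes were lower in 16 of 23 cases, with none higher. PID, a kinase of auxin transport needed for flower formation, stood at 6.74 FPKM in leaves, 87.3 at day 0 and 91.7 at day 2, against 22.1 in inflorescences. MP, the auxin response factor that starts flower primordia, was at 202 FPKM at day 2 and 50.1 in inflorescences, and ANT, a growth regulator it activates, at 184 and 46.5. The auxin synthesis genes YUC1 and YUC4 were lower at 1.21 against 8.39 FPKM and 2.06 against 12.1. TAA1 and TAR2, which act just before them in auxin synthesis, were at 15.5 and 26.1 FPKM at day 2 and 22.6 and 22.7 in inflorescences and did not meet the rule. ESR1, a close relative of DRNL in organ founding, was at 7.20 FPKM at day 2 and 0.199 in inflorescences. Among polarity genes, REV and PHB of the upper side were lower at 29.0 against 64.0 FPKM and 26.4 against 56.5, and PHV was at 41.9 FPKM at day 2 and 32.0 in inflorescences. On the lower side AFO (also FIL) was lower at 62.2 against 174 FPKM, while YAB3 was at 25.4 FPKM at day 2 and 37.8 in inflorescences. With equal upper quartiles REV and PHB fell short of the rule, and PHB also with the median ratio.

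**Figure D4:**
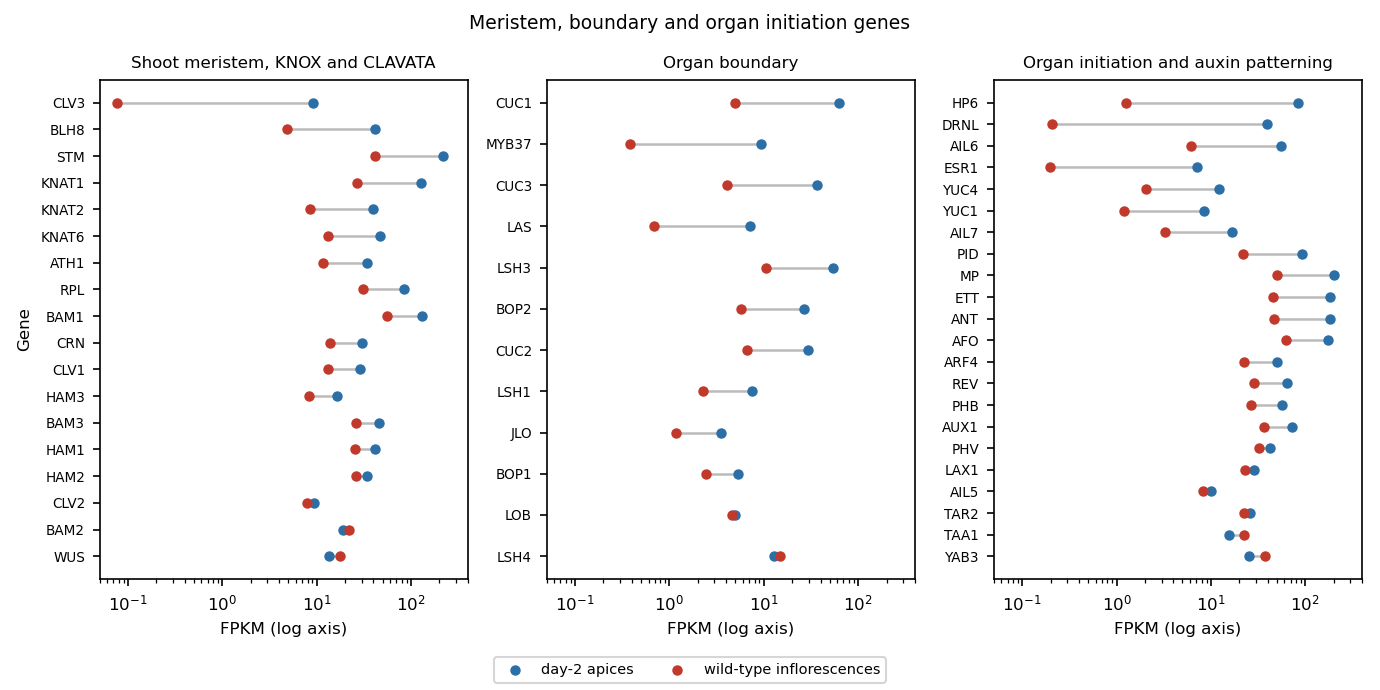
Each row is a gene, with its FPKM on a log axis in day-2 apices (blue) and wild-type inflorescences (red), joined by a grey line, for genes of 3 lists, sorted by the size of the difference. Red points lie to the left of blue ones for most genes. WUS, BAM2, LSH4, TAA1 and YAB3 have the inflorescence value on the right.

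Genes of DNA replication and cell division were lower as a list, with a median difference of -0.96, and 12 of 29 met the rule while none was higher. The count ranged from 4 to 17 when the groups were rescaled, because many genes lie close to the limit. The replication licensing subunit MCM2 was at 3.56 FPKM in leaves, 32.1 at day 0 and 36.3 at day 2, against 21.7 in inflorescences, and the 5 other MCM genes were at 35.5 to 48.2 FPKM at day 2 and 17.1 to 24.98 in inflorescences. CYCB1;1, a cyclin of dividing cells, was lower at 22.5 against 65.6 FPKM, and SYP111 (also KNOLLE), needed to build the new cell wall, at 93.0 against 203. The cyclins that hold cells in division were lower throughout, with CYCD3;1 at 40.6 against 113 FPKM, CYCD3;2 at 74.1 against 160 and CYCD3;3 at 38.2 against 140. Genes of cycle exit gave 3 higher and 3 lower of 15. LGO (also SMR1) and SIM, inhibitors that turn cells to endoreduplication, were higher at 53.4 against 5.78 FPKM and 24.6 against 7.37, and ICK1 (also KRP1) at 7.60 against 2.45. The related inhibitors ICK3 (also KRP5) and ICK6 (also KRP3) were lower at 12.6 against 44.0 FPKM and 13.4 against 37.8. FZR3, the activator of the mitotic ubiquitin ligase, was lower at 60.7 against 124 FPKM, close to the limit.

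DNA methylation and small RNA genes were mostly between the limits, with 2 higher and 5 lower of 28. The ARGONAUTE genes AGO9 and AGO5, known from ovules and germ cells, were the higher ones, at 50.8 against 0.694 FPKM and 20.2 against 4.97. In leaves they stood at 0.0874 and 0.0193 FPKM. AGO4, which guides DNA methylation, was lower at 69.3 against 155 FPKM, and AGO1, the main microRNA effector, was at 224 FPKM at day 2 and 112 in inflorescences, just short of a call. VIM1 and CHR1 (also DDM1), which keep methylation through replication, were at 112 and 45.2 FPKM at day 2 and at 27.9 and 13.8 in inflorescences. The methyltransferases MET1, at 19.2 against 36.1 FPKM, and CMT3, at 22.6 against 40.2, did not meet the rule.

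Genes of chlorophyll synthesis and carbon fixation were higher in 15 of 19 cases, with none lower and all 19 positive. The Rubisco activase gene RCA stood at 3862 FPKM in leaves, 259 at day 0 and 177 at day 2, against 969 in inflorescences. PRK, which regenerates the Rubisco substrate, was at 64.7 FPKM at day 2 and 334 in inflorescences, and GAPB at 72.7 and 337. Chlorophyll enzymes differed less, with GUN5 at 66.9 and 138 FPKM and CHLM at 87.3 and 186. GPRI1 (also GLK1), a regulator of chloroplast genes, was higher at 18.7 against 3.90 FPKM, and its paralog GLK2, at 8.53 against 6.49, did not meet the rule. The order of leaves above inflorescences above day-2 apices held for RCA, GAPA, GAPB, PRK and both FBA genes. The apices had been dissected free of leaf and pedicel tissue per the labels, while inflorescences were whole, and the part of stems, pedicels and sepals in these values was not tested.

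Secondary wall and vascular genes were higher in 9 of 15 cases and none was lower. The cellulose synthases of the secondary wall, CESA4, IRX3 and IRX1, stood at 14.8, 8.78 and 10.0 FPKM in inflorescences and at 2.67, 1.17 and 1.08 at day 2. The laccases IRX12 (also LAC4) and LAC17, which polymerise lignin, reached 33.7 and 14.0 FPKM from 1.30 and 1.87. The xylem proteases XCP1 and XCP2 were at 8.79 and 24.4 FPKM against 1.30 and 5.92. Their upstream switches were low, with VND7 at 0.878 FPKM, NAC101 (also VND6) at 2.34 and MYB46 at 3.71. In the phloem SUC2 was higher at 61.8 against 26.2 FPKM, and APL was at 12.4 FPKM at day 2 and 11.3 in inflorescences. The endothecium uses part of the same wall pathway, and its share of these transcripts was not tested.

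Glucosinolate genes, which serve defence, were higher in 7 of 21 cases and none was lower, although leaves exceeded inflorescences for most of them. The 2 myrosinases differed from each other. TGG1 was at 847 FPKM in leaves, 368 at day 0 and 350 at day 2, against 876 in inflorescences, and TGG2 at 278, 3.76, 3.04 and 383. The regulator MYB28 of methionine-derived glucosinolates was at 77.0 FPKM in leaves, 1.85 at day 2 and 17.4 in inflorescences, and CYP83A1, an enzyme of that branch, at 327, 1.78 and 40.8. The chain elongation genes MAM1, at 2.92 FPKM in inflorescences, and BCAT4, at 3.62, stayed below the limit for a call but stood at 144 and 302 FPKM in leaves.

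Genes of gibberellin and cytokinin were split, with 5 of 23 higher and 6 lower. The last enzymes of gibberellin synthesis, GA3OX1 and GA3OX3, were lower at 3.92 against 18.2 FPKM and 3.56 against 14.8. GA3OX1 was at 0.504 FPKM at day 0, so that day 2 was its highest point. The gibberellin-induced peptide gene GASA6 was higher at 151 against 9.13 FPKM, while GASA4 was at 818 FPKM at day 2 and 694 in inflorescences. Cytokinin activation genes of the LOG family were lower, with LOG4 at 3.54 against 29.4 FPKM and LOG7 at 3.35 against 20.7. LOG5, which is outside the list and among the 25 lowest members, was at 458 FPKM at day 2 and 22.1 in inflorescences. The cytokinin response genes RR5 and ARR6 were higher at 8.62 against 2.42 FPKM and 15.5 against 2.59, and the cytokinin-degrading oxidases CKX3 and CKX6 differed in direction, at 10.7 against 1.47 and 6.06 against 13.7.

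Sugar transporters were mostly higher in inflorescences. Of 17 SWEET exporters, 12 (70.6%) were higher and none lower, and of 10 STP hexose importers, 9 were higher and none lower, against 9.24% higher over all identifiers. The families fell into a group seen mainly in inflorescences and a group shared with leaves. SWEET8, which feeds the pollen, was at 0.0149 FPKM in leaves, 0.0892 at day 0 and 0.180 at day 2, against 81.2 in inflorescences, and SWEET3 at 0.0208, 0.142, 0.196 and 48.6. STP2, STP6 and STP9, known from pollen, stood at 65.2, 30.7 and 94.1 FPKM in inflorescences and did not exceed 1.34 FPKM in any other group. By contrast the phloem exporters SWEET11 and SWEET12 were at 318 and 147 FPKM in leaves, 7.67 and 11.0 at day 2 and 30.9 and 30.1 in inflorescences. SWEET10, known to respond to flowering signals, was highest in inflorescences at 118 FPKM, above 28.9 at day 2 and 1.07 in leaves. SWEET1 was unusual in that day 2 stood well above day 0, at 6.61 FPKM at day 0 and 64.5 at day 2, against 131 in inflorescences.

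Water channels showed pollen members, leaf members and apex members. Among 9 vacuolar TIP genes, 4 were higher. TIP1;3 and TIP5;1, both known from pollen, reached 36.3 and 11.2 FPKM from 0.0276 and 0.0310. Among 13 plasma membrane PIP genes, 6 were higher and 2 lower. PIP2A stood at 1437 FPKM in leaves, 42.0 at day 2 and 205 in inflorescences, while PIP2;5 was lower at 72.1 against 269 FPKM and PIP1;4 at 307 against 829. PIP2;5 was at 386 FPKM at day 0 and 11.8 in leaves.

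**Figure D5:**
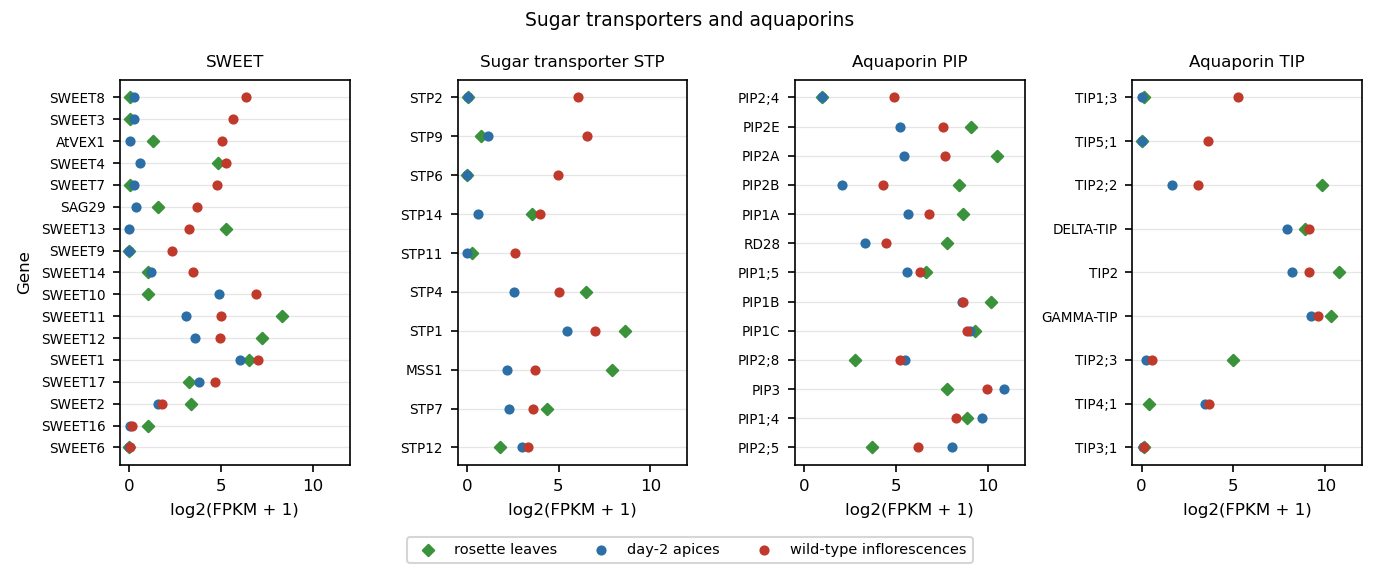
Each row is a gene of the SWEET, STP, PIP or TIP family, with log2(FPKM + 1) in rosette leaves (green diamonds), day-2 apices (blue) and wild-type inflorescences (red), sorted by the difference between the last 2 groups. SWEET8, SWEET3, STP2, STP6, TIP1;3 and TIP5;1 are near 0 except in inflorescences. SWEET11, STP1, PIP2A and PIP2B are highest in leaves.

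Families of secreted peptides, wall proteins and exporters gave more higher than lower genes. Of 34 RALF-like peptide genes, 11 (32.4%) were higher and none lower, led by RALFL9 at 224 FPKM, RALFL8 at 181 and RALFL20 at 64.5, with RALFL8 and RALFL20 listed at 0 at day 2. In the arabinogalactan family 7 of 31 genes (22.6%) were higher and 3 (9.68%) lower. AGP40 was at 222 FPKM in inflorescences and 1.34 at day 2, whereas AGP31 was lower at 529 against 1255 FPKM. Of 43 ABCG transporters, 10 (23.3%) were higher and none lower, and after ABCG26 came ABCG9 and ABCG31, which also load the pollen surface, at 16.4 and 15.4 FPKM from 0.0152 and 0.0394. Expansins, which loosen cell walls, were split. EXPA11 and EXPA8 were higher at 24.5 against 0.226 FPKM and 41.9 against 1.42, and EXPA15 was lower at 97.8 against 246. Of 12 JAZ repressors of jasmonate signalling, 4 were higher and none lower, led by TIFY7 at 149 against 21.4 FPKM.

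The larger families of transcription factors gave calls in both directions. Of 100 NAC genes, 17 (17.0%) were higher and 7 (7.00%) lower. NAC025 had the largest difference, at 0.0575 FPKM in leaves, 2.48 at day 0 and 0.574 at day 2, against 104 in inflorescences. NAC019 and NAP, known from leaf ageing and stress, were at 163 and 200 FPKM in leaves, 8.42 and 1.99 at day 2 and 67.8 and 17.3 in inflorescences. Of 125 MYB genes, 14 (11.2%) were higher, close to the 9.24% over all identifiers, and 7 were lower. MYB17 (also LMI2), a meristem identity gene, was lower at 17.0 against 126 FPKM and AS1, a repressor of KNOX genes, at 64.2 against 253. Of 72 WRKY genes, 1 was higher and 8 (11.1%) were lower, against 2.80% lower over all identifiers, while 40 of the 72 had a positive difference and their median was 0.02. WRKY14 was at 12.4 FPKM at day 0 and 29.5 at day 2, against 4.12 in inflorescences, and WRKY42 was the higher gene at 10.6 against 0.127 FPKM.

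Among the 25 genes with the lowest differences, all 25 were at 5.68 FPKM or more at day 0, and 8 were below 1 FPKM in inflorescences. Since the genes were picked by this difference, low values in inflorescences follow in part from the choice. FTM1, a desaturase gene that marks the floral transition, was at 0.0647 FPKM in leaves, 317 at day 0 and 125 at day 2, against 2.80 in inflorescences. AGL72, a MADS-box gene that promotes flowering in axillary meristems, was at 0.0883, 52.9, 32.2 and 0.370 FPKM, and FPF1, a flowering promoter, at 1.38, 152, 206 and 9.21. HB53 and HB21 (AT2G18550), homeobox genes known from axillary buds, were at 30.1 and 74.7 FPKM at day 2 and at 0.568 and 3.41 in inflorescences. ROXY1, a glutaredoxin needed for petals and anthers, was at 61.1 FPKM at day 2 and 3.15 in inflorescences, and BAT1, a brassinosteroid-modifying acyltransferase, at 149 and 10.0. LRP1, a relative of the STY genes, was at 65.1 and 5.10 FPKM, in the same direction as SRS5.

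Among the 25 genes with the highest differences, 21 were below 1 FPKM at day 2 and 15 below 1 FPKM in leaves. Since the genes were picked by this difference, low values at day 2 follow in part from the choice. sks13, a multicopper oxidase relative, stood at 3.11 FPKM in leaves, 0.187 at day 0 and 0.0355 at day 2, against 352 in inflorescences. MEE48 (AT4G14080), a glycosyl hydrolase of family 17, was at 0.0994, 0.990, 1.55 and 254 FPKM. Not all of them were confined to flowers. ECS1 was at 2848 FPKM in leaves, 0.821 at day 0 and 0.233 at day 2, against 148 in inflorescences, and UNE15 was at 18.1 FPKM in leaves and 222 in inflorescences. The thionin gene THI2.1, an antimicrobial peptide of flowers, reached 159 FPKM from 0.370.

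Of the 10 most abundant members of each group, 5 were the same genes, namely AT2G40205, AT2G01021, LTP6, GRP7 and MT2B. The 5 others of inflorescences, RBCS1A, CAB1, KIN2, LP1 and GRP19, were all called higher. AT2G40205, a ribosomal protein L41 gene, was at 14953 FPKM at day 2 and 8484 in inflorescences, and the metallothionein MT2B at 2927 and 3134. GRP7, an RNA-binding protein, was at 3280 and 3116 FPKM. The lipid transfer gene LTP6 was at 7.14 FPKM in leaves, 4266 at day 2 and 2690 in inflorescences. RBCS1A led in inflorescences at 8661 FPKM against 2029 at day 2. It is listed at 0 in leaves, as is CAB1, which stood at 4113 FPKM in inflorescences, and since both encode abundant leaf proteins these zeros cannot be read as absence. AT4G29030 was the member of this set with the largest lower difference, at 2371 FPKM at day 2 and 403 in inflorescences.

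Of 8 reference genes, none met the rule. PP2AA3 was at 39.9 FPKM at day 2 and 38.2 in inflorescences, AT2G28390 at 31.8 and 32.3, and UBQ10 at 419 and 438. ACT2 was the least even at 100.4 and 196 FPKM, a log2 difference of 0.96. When the groups were rescaled to equal upper quartiles or by the median ratio, 1 of the 8 met the rule in the higher direction.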

How the data were processed

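RNA of 12 Arabidopsis thaliana samples, 3 libraries in each of 4 groups, was sequenced from stranded, poly(A)-selected libraries per the labels' protocols. The authors deposited a table of FPKM with 1 merged value per gene and group. The header names only genes and groups, so the unit rests on the values and on Cufflinks 2.1.1 being among the tools. Per the submitters' processing notes, the others were TopHat2 2.0.10, Bowtie2 2.1.0 and CASAVA 1.8.2, and the build was TAIR10. How libraries were merged and scaled is not given in the sources used here. Depth is unknown, no test could be run, and libraries could not be compared.

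Rows of 567 repeated identifiers were summed (34133 rows, 33559 identifiers). Symbols, gene classes and neighbours came from RefSeq's annotation of TAIR10.1, which holds 32815 of the identifiers, and no coordinates are given. Differences are log2(FPKM + 1) in inflorescences minus day-2 apices, called at 1 with at least 5 FPKM in the higher group. Python 3.11.15 with pandas 2.3.3, numpy 2.4.6 and matplotlib 3.10.9 was used, and the rule was tested on simulated data. Members, 24 gene lists (441 genes), 26 symbol families and alternatives were chosen with earlier results of these data known. Lists are described by counts and medians over all their genes, members or not, to be read against the shares and the median over all identifiers.

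Named genes were the 25 highest and 25 lowest differences among protein-coding genes with a symbol and values above 0 in both groups, the 10 most abundant members per group, genes of the lists, up to 3 per direction in a family, and the GRP and EXL clusters. Other family genes were named after their values were seen. Symbols are those of RefSeq. Some genes counted in the lists are not reported here by name. Short reads from near-identical copies (GRP, RBCS, LHCB1 and histone genes, VGD1 with VGDH1) and values of very short RNAs are uncertain, and an exact 0 can be a failed estimate. Alternatives were other pseudocounts, floors, scalings and call limits, gene classes, and, chosen after seeing the data, transcripts of 500 nt or more.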

Additional observations from a re-analysis of the deposited data

How the results depend on the processing

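No paired analysis was possible because the table holds 1 merged value per group, and for the same reason no replicate could be left out. The counts of higher and lower genes, 3100 and 940, changed by over 1.5 times only in these cases. With a floor of 1 FPKM, or with none, 4755 were higher. With a floor of 20 FPKM 1551 were higher, and with a call at a log2 difference of 2 the counts were 1735 and 199. A pseudocount of 5 FPKM left 597 lower. Rescaling moved the median of the members from -0.03 to 0.11 (equal upper quartiles), 0.07 (median ratio) or -0.11 (equal sums), and the counts to 3425 and 679, 3322 and 733, and 3037 and 1146. These shifts were far smaller than the limit of 1, so no called gene could change sign. The fewest calls kept were 2958 of the higher and 679 of the lower. Of the list medians under alternatives, 225 stayed within the 95% interval of the main median, taken over the genes of a list, and 14 did not. With a pseudocount of 0.1 FPKM these were pollen coat 10.71, exine 7.26, late pollen 5.32, nectar 5.16, tapetum regulators 4.54, carpel 2.52, vascular 2.43 and glucosinolate 1.94. With one of 5 FPKM they were pollen coat 5.93 and late pollen 0.99. With a floor of 20 FPKM they were late pollen 6.47, tapetum regulators 3.72, carpel 3.05 and meiosis -0.56, where fewer genes were left in a list. The interval measures no spread between libraries and is wide for short lists, such as -2.67 to 5.08 for the 8 nectar genes. Removing the floor or the repeated identifiers changed no list median. The count of medians within the interval is therefore no measure of stability. The medians of cycle exit and reference genes, -0.12 and -0.13, became 0.02 with equal upper quartiles. All 250 values of the 25 highest and 25 lowest genes under the other pseudocounts and scalings kept their call. These genes were picked for their large differences, so this says little about other genes. Of the 419 other list genes, equal upper quartiles ended the call of 17 and gave one to 5, the median ratio 12 and 4, and equal sums 4 and 10. A pseudocount of 5 FPKM ended 23 and gave none, and one of 0.1 FPKM ended none and gave 8. A change of pseudocount cannot turn the sign of a difference. Among the genes described, AHP2, CKX6, CLV1, CYCD3;2, FZR3, PDF1, PHB, REV and SYP111 lost their call with equal upper quartiles and CHLM and GUN5 with equal sums, while ACT2 gained one with equal upper quartiles and AGO1 with equal sums. Genes near 5 FPKM or near 0 are the least certain.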

Other observations

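Gene classes read from RefSeq product names, which were chosen after their values were seen, gave further groups, whose shares are to be read against 9.24% higher and 2.80% lower over all identifiers. Of 9 growth-regulating factors, transcription factors that sustain cell division in young organs, 7 (77.8%) were lower in inflorescences and 1 was higher. GRF5 stood at 115 FPKM at day 2 and 22.7 in inflorescences and GRF2 at 46.9 and 8.35, while GRF4 was at 14.0 and 15.2 and GRF8 was higher at 9.61 against 3.76. Of 80 low-molecular-weight cysteine-rich peptide genes, 15 (18.8%) were higher and none lower. LCR32 at 94.0 FPKM, LCR33 at 69.3 and LCR25 at 69.1 were each listed at 0 at day 2, whereas LCR69 was among the most abundant transcripts of both groups, at 3763 FPKM at day 2 and 1920 in inflorescences. Of 63 genes of the self-incompatibility S1 class, which are small secreted proteins, all were below 1 FPKM at day 2 and 10 (15.9%) were higher in inflorescences, led by AT3G26860 at 55.6 FPKM. Among 108 invertase and pectin methylesterase inhibitor genes, 29 (26.9%) were higher and none lower, and among 87 GDSL-type lipase genes, 29 (33.3%) were higher and 1 lower. The lipase gene AT5G33370 was at 0.310 FPKM in leaves, 5.95 at day 0 and 34.0 at day 2, against 653 in inflorescences. Small SAUR genes, known for their response to auxin and their part in cell expansion, were higher in 19 of 77 cases (24.7%) and lower in none.

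Runs of at least 4 neighbouring protein-coding genes called in the same direction numbered 9 for higher and 1 for lower genes in RefSeq's assembly TAIR10.1, and they too were singled out after their values were seen. Higher calls were also the more frequent ones, at 9.24% against 2.80% of all identifiers. How many runs these shares alone would give was not tested. Besides the GRP and EXL runs, the 6 genes from AT3G28780 to AT3G28840 on chromosome 3, which share a domain of unknown function, stood between 5.36 and 351 FPKM in inflorescences and did not exceed 0.0761 FPKM at day 2. A run of 6 genes from AT1G23560 to AT1G23610 on chromosome 1 stood between 9.32 and 158 FPKM in inflorescences and at 0.317 FPKM or less at day 2. The lower run, AT3G22540 to AT3G22570 on chromosome 3, contained AT3G22550 at 141 FPKM at day 2 and 47.8 in inflorescences.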
